A study of Mus musculus with 12 samples.

Results

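The CLK kinases Clk1 and Clk4 and 8 further splicing genes known for retained introns or poison exons (Ccnl1, Ccnl2, Luc7l, Rbm39, Rbm5, Prpf38b, Rsrp1 and Pnisr) were compared between frontal cortex of Upf3b-null and wild-type mice. The genes were taken by symbol from a table of read counts for 14909 genes. All 10 were present, and all 10 were among the 14274 genes with enough counts to be tested. Bulk RNA sequencing had been done on C57BL/6 mice, with 7 wild-type animals (WT 1 to 7) and 5 animals labelled UPF3B KO (KO 1 to 4 and KO 6), 1 library per mouse. No other allele or treatment is named for either group. The sources used here do not give age, sex or the way the null allele was made.

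CLK kinases phosphorylate the serine- and arginine-rich (SR) proteins, which bind exons and direct the spliceosome to splice sites. Many genes of this system limit their own expression by splicing. They make transcripts that keep an intron, which are often held in the nucleus, or transcripts that include a poison exon or skip a needed one, so that a premature stop codon arises. Transcripts of the second kind are textbook targets of nonsense-mediated decay (NMD), in which UPF3B takes part. The deposited counts are per gene, so a retained-intron or NMD-targeted transcript was not measured apart from the other transcripts of its gene.

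Such transcripts are annotated in these genes, which were picked as known for them, and the share over all genes was not computed. In GENCODE M21, which uses the mm10 assembly, the 10 genes have 133 transcripts, of which 31 are protein-coding, 51 are annotated as retaining an intron and 27 as NMD targets. Rsrp1 has no transcript annotated as an NMD target, and Pnisr has none annotated as retaining an intron. Retained-intron transcripts spanned 21 introns of the coding transcripts of 7 genes, between 84 and 3527 bases long. Transcripts annotated as NMD targets added 13 exons to the coding transcripts or skipped 5 of their exons, in 8 genes. Overlapping forms of an added exon with different ends are counted apart. When each change was made alone in the coding transcript, the reading frame ended in all 18 cases at a stop codon that lay over 50 nt before the final exon junction.

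Exon 4 is skipped in NMD-annotated transcripts of both Clk1 and Clk4 and is shown here for that reason. In Clk1, 1 of the 2 transcripts that skip it also skips exon 7, of 167 bases. It is 91 bases long in each, so that skipping it shifts the frame. It lies at chr1:58420121-58420211 (minus strand) in Clk1 and at chr11:51273078-51273168 (plus strand) in Clk4, mm10, within the coding sequence. The copies are 93.4% identical, and capitals mark the 6 bases that differ.
Clk1 exon 4: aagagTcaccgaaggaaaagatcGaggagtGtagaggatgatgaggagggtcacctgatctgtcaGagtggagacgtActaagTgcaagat
Clk4 exon 4: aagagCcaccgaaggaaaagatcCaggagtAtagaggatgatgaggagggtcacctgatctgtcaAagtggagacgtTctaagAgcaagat
Without this exon the Clk1 frame ends after 135 of 483 codons and the Clk4 frame after 134 of 481, in each case 809 nt before the final junction. The introns on either side of exon 4, introns 3 and 4, are annotated as retained in both genes. They are 871 and 387 bases long in Clk1 and 1055 and 391 bases long in Clk4. The splice sites of intron 4 are given below, the 5′ site with the last 3 exon bases and the 3′ site with the first 3 bases of exon 5, and capitals mark the first and last 2 bases of the intron.
Clk1 intron 4, 5′ splice site: gatGTatag
Clk4 intron 4, 5′ splice site: gatGTatag
Clk1 intron 4, 3′ splice site: taattattcctcttttttAGatg
Clk4 intron 4, 3′ splice site: ctttctctcccttactttAGatg
The 5′ sites have the same 9 letters, and the 3′ sites differ within the intron.

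The cyclin L genes also share the place of a poison exon. Each has an annotated added exon in intron 5 that holds an in-frame stop codon, marked in capitals. It lies at chr3:65950025-65950226 (minus strand) in Ccnl1 and at chr4:155818539-155818664 (plus strand) in Ccnl2. The Ccnl1 exon shown is in 1 NMD-annotated transcript and also has a 14-base form with no stop inside. In intron 3, Ccnl1 has a 73-base added exon with a stop, in 3 such transcripts, and a 147-base form of it in 1. The transcript with the Ccnl1 exon shown is among those 3, so a stop in intron 3 comes before the one marked. Each added alone, the 73-base exon ends the frame after 178 codons and the exon shown after 238. The added exons of Luc7l (chr17:26253974-26254044, plus strand, intron 1) and Rbm39 (chr2:156178880-156178952, minus strand, intron 2) are shown because these genes passed the test below. Rbm39 has 5 annotated added exons, and the one shown is in 3 NMD-annotated transcripts, the other 4 in 1 each.
Ccnl1 added exon: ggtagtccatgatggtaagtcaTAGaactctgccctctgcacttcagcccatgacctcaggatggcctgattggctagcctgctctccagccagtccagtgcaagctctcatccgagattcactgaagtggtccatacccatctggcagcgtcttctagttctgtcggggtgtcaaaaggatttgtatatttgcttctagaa
Ccnl2 added exon: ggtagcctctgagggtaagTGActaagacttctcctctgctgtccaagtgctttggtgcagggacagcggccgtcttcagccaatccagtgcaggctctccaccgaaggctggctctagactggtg
Luc7l added exon: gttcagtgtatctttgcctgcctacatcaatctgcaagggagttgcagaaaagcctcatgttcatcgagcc
Rbm39 added exon: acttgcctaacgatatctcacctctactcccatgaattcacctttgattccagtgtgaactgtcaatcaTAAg
The 71-base exon of Luc7l holds no in-frame stop but shifts the frame, which then ends after 79 of 371 codons. Of the 18 exon changes, 2 belong to a RefSeq model listed in the count table, namely exon 4 skipping in Clk1 and the added exon of Luc7l. None of the 21 retained introns lies whole in a listed model that could be matched to GENCODE. Whether the other forms added reads to a gene's count depends on counting rules that the sources used here do not give.

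WT libraries held 4684039 to 5425774 counts and KO libraries 4990643 to 6617759, and 4 of the 5 KO libraries were deeper than every WT library. Levels are given as CPM, counts scaled to a common library size. Upf3b was at 38.3 ± 2.48 CPM in the 7 WT libraries (mean ± SD) and at 2.76 ± 0.877 CPM in the 5 KO libraries, and no library went against its label. Markers of cortical neurons, interneurons, astrocytes, oligodendrocytes and microglia were detected, and globin genes were not analysed here. Against the WT mice, 4 of 5 microglia markers, 3 of 5 oligodendrocyte markers and 2 of 5 each of the excitatory neuron, interneuron and astrocyte markers were called lower in KO, and 2 of 4 endothelial markers higher, where 14.4% of all tested genes were lower and 15.3% higher. With the density offsets described below, 3 microglia markers were still lower and no marker of the other 5 types was called. The part of these differences in the results below was not tested. In bulk tissue, fewer cells of a type and less RNA per cell cannot be told apart. WT 6 and WT 7 were the closest pair of libraries (chi-square per degree of freedom 1.02, against at least 1.20 in the other pairs within a genotype), and the results below were also computed with their mean as 1 library.

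The 10 genes differed little between the genotypes. With edgeR's quasi-likelihood test across all genes, 1 of the 10 was called higher in KO (Luc7l), 2 were called lower (Rbm39 and Rsrp1) and 7 were not called. Of all tested genes 15.3% were called higher and 14.4% lower at the same threshold, an adjusted p under 0.05, so the members' share is near that background. The log2 fold changes (KO over WT) of the 10 ran from -0.34 to 0.16 with a median of -0.077, against a median of 0.034 over all tested genes. The 95% intervals of the 10 folds together spanned 0.700 to 1.24, so a change of 2-fold lay outside every one of them. With WT 6 and WT 7 as 1 library the counts of calls were the same, 1 and 2.

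**Figure D1:**
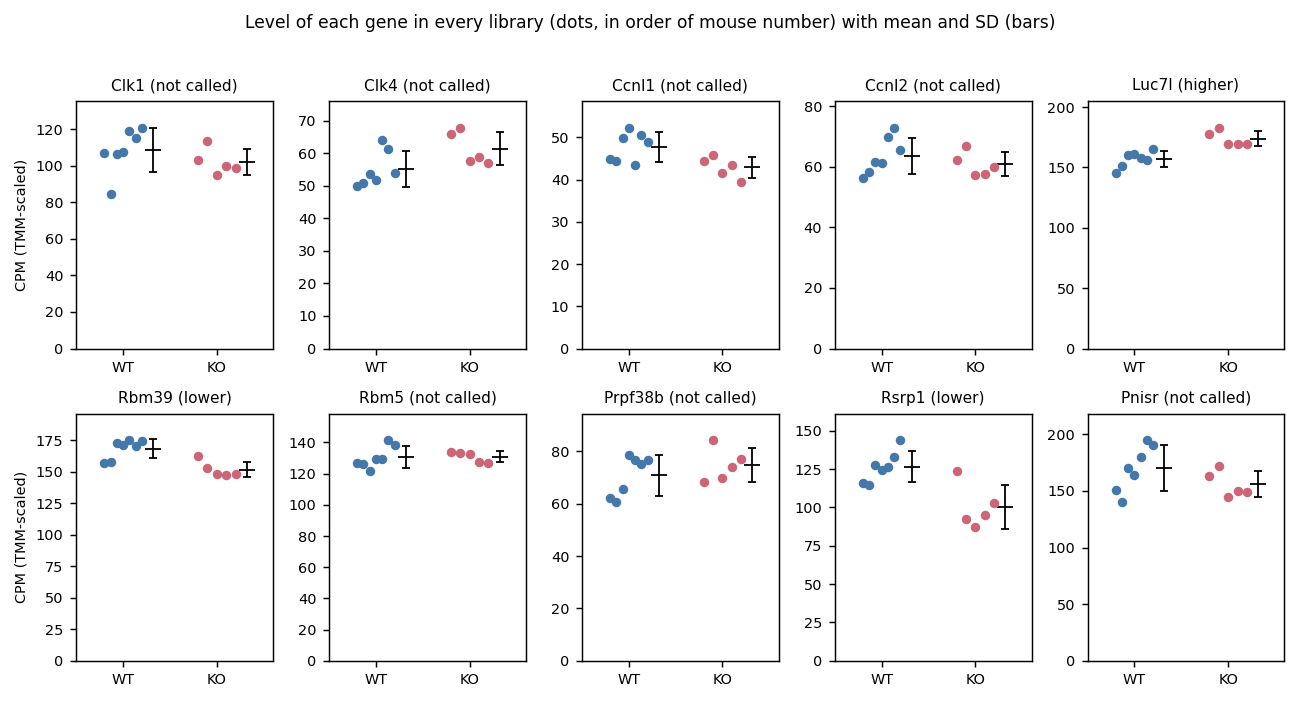
Level of each of the 10 genes in CPM on TMM-scaled library sizes (y axes from 0), with 1 dot per library in order of mouse number, WT in blue and KO in red, and the mean and SD as bars. Luc7l is the one gene whose KO libraries all lie above its WT libraries, and in Rsrp1 KO 1 lies apart from the other KO libraries, inside the WT range.

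Luc7l encodes a relative of the yeast U1 snRNP protein Luc7, which helps select 5′ splice sites. Its level in the KO libraries 1, 2, 3, 4 and 6 was 178, 183, 169, 169.5 and 169.6 CPM, and in WT the lowest, median and highest were 145, 158 and 165 CPM. Every KO library was above every WT library, which held for 5.84% of all tested genes, and the reverse, which held for 4.8% of them, was seen in none of the 10. Its log2 fold change of 0.15 ± 0.04 (SE) had an adjusted p of 0.0104 by edgeR. It passed without any 1 library (adjusted p 0.00956 to 0.0296). With the mouse number as a block the adjusted p was 0.0558, and with library depth as a covariate 0.261, at log2 fold changes of 0.17 in both fits. Because most KO libraries were deeper than every WT library, the covariate fit can hardly tell depth from genotype. Its SE for Luc7l was 0.062, against 0.039 with genotype only. In the block fit 0 of the 10 genes were higher and 1 (Rsrp1) lower, against 7.91% and 8.31% of all tested genes, and in the covariate fit none was called, against 0.588% higher and 0.0771% lower.

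Rsrp1 encodes an arginine- and serine-rich protein. Its counts were nearly flat, at 551 to 673 in WT and 589 to 624 in KO, although the KO libraries were deeper. Scaled to library size, KO 1, 2, 3, 4 and 6 were at 124, 92.7, 87.1, 94.9 and 103 CPM, against 114, 126 and 144 CPM as the lowest, median and highest in WT. KO 1, the shallowest KO library, lay inside the WT range, and the other 4 lay below it. The log2 fold change was -0.34 ± 0.08 (edgeR adjusted p = 0.00488), the largest of the 10 in size, and -0.42 without KO 1. Within genotypes its log2 CPM had r = -0.79 (rho = -0.55) with the log2 library total over the 12 libraries, a description of these libraries. This was the most extreme of the 10, and r of the others ran from -0.55 for Rbm39 to 0.21 for Prpf38b.

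Rbm39 encodes an RNA-binding protein that works with the U2AF splicing factor. It was at 162, 153, 148, 147 and 148 CPM in KO 1, 2, 3, 4 and 6 and at 157, 171 and 175 CPM as the lowest, median and highest in WT. Again KO 1 lay inside the WT range and the other 4 KO libraries below it. The log2 fold change was -0.15 ± 0.04 (edgeR adjusted p = 0.0130).

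Rsrp1 and Rbm39 were not called in the fits with density offsets or with depth as a covariate. Over all tested genes, fold changes differed with how densely a gene was counted. When all tested genes were split into 10 bins by their mean count per exonic base, the sparsest bin had a median log2 fold change of 0.25 and the densest one of -0.18, with 67.6% of its genes called lower. Rsrp1, Clk1 and Rbm39 are all in the densest bin, at 0.349, 0.316 and 0.292 counts per base. All 10 genes are in the 4 densest bins, where Ccnl1, Luc7l and Prpf38b are the sparsest at 0.113 to 0.134 counts per base. With offsets fitted to take this trend out of every library, Rbm39 was at -0.0094 ± 0.039 (edgeR adjusted p = 0.899) and Rsrp1 at -0.17 ± 0.06 (adjusted p = 0.0699), so neither was called. With depth as a covariate they were at -0.060 and -0.041 (adjusted p = 0.713 and 0.883). Luc7l with offsets was at 0.15 ± 0.04 (adjusted p = 0.0134) and was the only one of the 10 called, against 8.49% of all tested genes called higher and 7.96% lower in that fit.

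**Figure D2:**
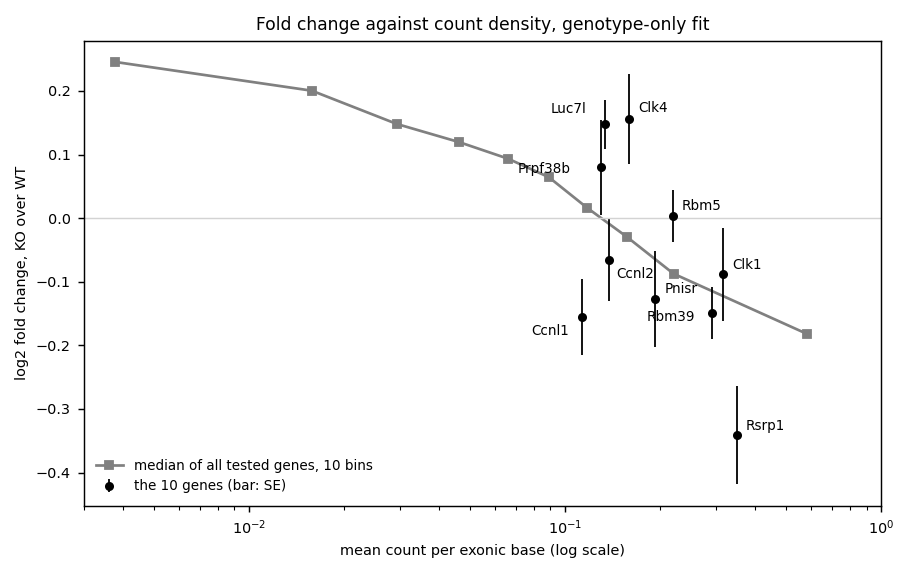
Log2 fold change (KO over WT) of the 10 genes with its SE, against the mean count per exonic base on a log axis, with the median of all tested genes in 10 bins of density in grey. Rsrp1 and Ccnl1 lie below the grey line, Rbm39 lies close to it, and Luc7l and Clk4 above it.

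The CLK kinases themselves were not called. Clk1 was at 103, 114, 95.2, 100.003 and 98.6 CPM in KO 1, 2, 3, 4 and 6, with 84.7, 108 and 121 CPM as the lowest, median and highest in WT. All KO values lay inside the WT range, and the log2 fold change was -0.088 with a 95% interval from -0.25 to 0.0755. It was 0.069 with density offsets (edgeR adjusted p = 0.590) and 0.026 with depth as a covariate (adjusted p = 0.954). Clk4 was at 65.9, 67.8, 57.5, 58.8 and 57.0 CPM in the KO libraries, with 50.03, 53.5 and 64.2 CPM in WT. KO 1 and KO 2 lay above the WT range of Clk4 and the other 3 inside it. Its log2 fold change was 0.16 (95% interval -0.0010 to 0.31, edgeR adjusted p = 0.107), and it passed only without WT 5, the highest WT library (0.20, adjusted p = 0.0418).

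Ccnl1 and Ccnl2 encode L-type cyclins, which partner the CDK11 kinases and carry an RS domain. Ccnl1 was at 44.4, 45.7, 41.6, 43.4 and 39.4 CPM in KO 1, 2, 3, 4 and 6 and at 43.4, 49.0 and 52.2 CPM as the lowest, median and highest in WT. KO 3, KO 4 and KO 6 lay below the WT range, KO 4 only just. The log2 fold change was -0.16 ± 0.06 (edgeR adjusted p = 0.0613), just short of the threshold, and it was called lower in 7 of the other fits, DESeq2 size factors (adjusted p = 0.0366) and upper-quartile factors (0.0444) among them. Density offsets left it at -0.18 (adjusted p = 0.0570). Ccnl2 was at 57.4 to 67.1 CPM in KO, all inside the WT range of 56.3 to 72.9, with a log2 fold change of -0.065 (95% interval -0.21 to 0.081).

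The remaining genes were not called either. Rbm5, an RNA-binding regulator of alternative splicing in apoptosis genes, had means of 131 ± 7.01 CPM (SD) over the 7 WT and 131 ± 3.40 CPM over the 5 KO libraries, with a 95% interval of the log2 fold change from -0.088 to 0.095. Prpf38b, a PRP38-domain protein, was at 70.8 ± 7.69 in WT and 74.7 ± 6.43 CPM in KO, with KO 2 alone above the WT range at 84.3 CPM. Pnisr, an SR-related nuclear protein, was at 163, 172, 145, 150.0 and 149 CPM in KO 1, 2, 3, 4 and 6, inside the WT range of 141 to 195. Its log2 fold change was -0.13 (95% interval -0.30 to 0.042). The interval of Prpf38b, from -0.088 to 0.25, includes a rise the size of that of Luc7l, and the interval of Pnisr includes a fall the size of that of Rbm39.

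**Figure D3:**
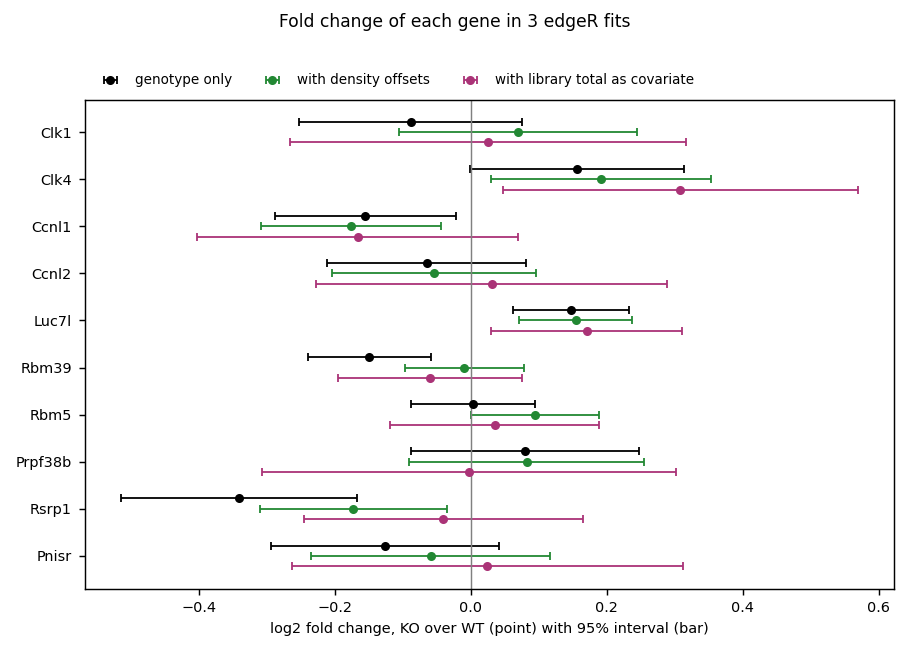
Log2 fold change (KO over WT) of each gene in 3 edgeR fits, with 95% intervals from the SE and the residual degrees of freedom as bars: genotype only (black), with density offsets (green) and with the log2 library total as a covariate (purple). The interval of Luc7l lies above 0 in all 3 fits, while those of Rbm39 and Rsrp1 reach 0 in at least 1 of them.

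Levels per length of the counted models were compared as CPM per kb of exonic sequence, the union of a gene's counted models, which for Luc7l comes to 6641 bases. In WT, Rsrp1 was highest at 72.3 ± 5.77 CPM per kb (SD, n = 7), then Clk1 at 60.6 ± 6.72 and Rbm39 at 56.9 ± 2.57, and the libraries of neighbours in this order overlapped. Rbm5 followed at 40.7 ± 2.19, with no WT library as high as any of Rbm39. Pnisr was at 37.4 ± 4.42 and Clk4 at 28.2 ± 2.80, and Ccnl2, Luc7l, Prpf38b and Ccnl1 were between 26.1 and 22.0 CPM per kb, each overlapping the next. In KO the order was the same except that Luc7l, at 26.2 ± 0.937, came before Ccnl2, at 24.9 ± 1.63. The KO libraries of Rbm39 and Rbm5, Rbm5 and Pnisr, Clk4 and the next gene, and Prpf38b and Ccnl1 did not overlap. Every library of Clk1 was above every library of its relative Clk4 in both genotypes.

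Ratios of related genes within a library do not depend on library scaling, and 5 pairs with both genes tested were compared by exact permutation of the genotype labels (two-sided, all arrangements). Clk1 counts were 1.66 to 2.24 times those of Clk4 in WT and 1.57 to 1.73 times in KO. The log2 ratio averaged 0.98 ± 0.15 (SD) over the 7 WT libraries and 0.74 ± 0.05 over the 5 KO libraries, a difference of -0.24 (95% interval -0.40 to -0.088, exact permutation p = 0.0101, adjusted over the 5 pairs 0.0442). WT 2, where Clk1 was at its lowest, lay inside the KO range, and the other 6 WT libraries were above every KO library. With density offsets the difference was -0.12 (exact permutation p = 0.131, adjusted 0.219), and leaving out single libraries gave differences of -0.28 to -0.21 with adjusted p values from 0.0216 to 0.0909.

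The ratio of Rbm5 to Rbm6, a neighbouring relative, was lower in KO as well, at a log2 difference of -0.13 (exact permutation p = 0.0177, adjusted 0.0442). It was 0.0057 with density offsets (exact permutation p = 0.885), Rbm5 being the more densely counted of the pair. Leaving out single libraries gave differences of -0.16 to -0.096 with adjusted p values from 0.0303 to 0.114. Ccnl1 to Ccnl2 differed by -0.091 (95% interval -0.26 to 0.074), Luc7l to Luc7l2 by 0.074 (-0.0062 to 0.15) and Prpf38b to Prpf38a by 0.25 (-0.031 to 0.52), with adjusted exact permutation p values of 0.244, 0.0979 and 0.0979. The last 3 differences did not pass the test, although that of Luc7l to Luc7l2 did without KO 1 (adjusted exact permutation p = 0.0455).

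**Figure D4:**
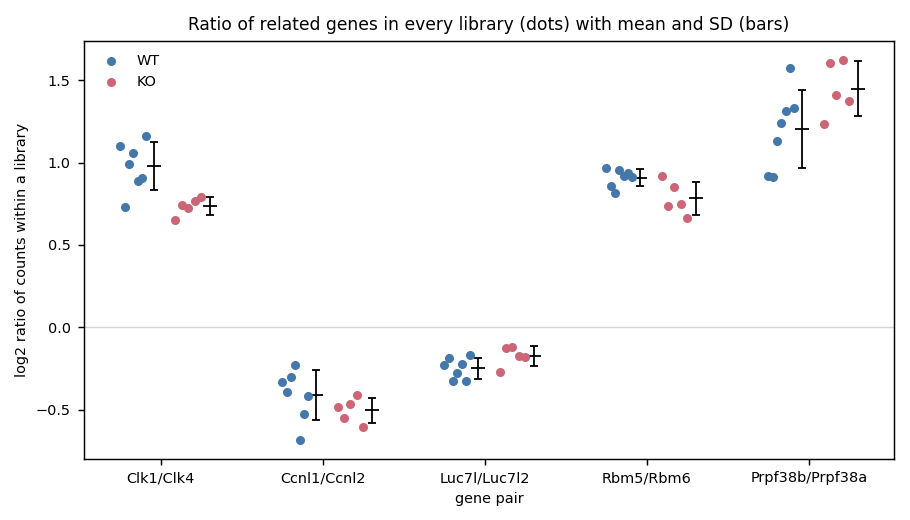
Log2 ratio of counts of 5 pairs of related genes in every library, WT in blue and KO in red, with the mean and SD as bars. The KO libraries of Clk1 to Clk4 lie at 0.65 to 0.79, against 0.73 to 1.16 in WT, and the groups overlap in every pair.

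The genes varied together from mouse to mouse far more clearly than between genotypes. After each genotype's mean was subtracted, all 45 pairs among the 10 genes had a positive Pearson correlation of log2 CPM over the 12 libraries, with a median of 0.59 and a range of 0.19 to 0.91. Over all pairs of 12239 other genes with a mean log2 CPM of at least 3, the median was -0.0040 and 49.6% were positive. All 45 pairs share the same libraries and scaling factors. Clk4 and Ccnl2 had r = 0.91 and Spearman rho = 0.90 (permutation p = 0.00023 and 0.00093, adjusted over the 45 pairs 0.00517 and 0.0105), and r = 0.87 without the 2 most distant libraries. Clk1 and Pnisr had r = 0.88 and rho = 0.87 (permutation p = 0.0002 and 0.00042, adjusted 0.00517 and 0.00945), and r = 0.81 without the 2 most distant libraries. In all, 8 pairs passed by r and 13 by rho.

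WT 1 and WT 2 were low for this whole group. All 10 genes were below the WT mean in both, and 4 genes had their lowest WT value in each of them. WT 6 and WT 7 were above the WT mean for 9 genes each. Among the KO mice, KO 1 and KO 2 were above the KO mean for 9 genes each, and KO 3, KO 4 and KO 6 for 1, 1 and 2. Without WT 1 and WT 2 the median correlation fell to 0.34 and 42 of the 45 stayed positive, so these 2 libraries carry much of it. With WT 6 and WT 7 averaged it was 0.56, and with density offsets 0.65, with all 45 positive in both. The mean of the 10 standardised genes had r = -0.37 with the log2 library total.

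**Figure D5:**
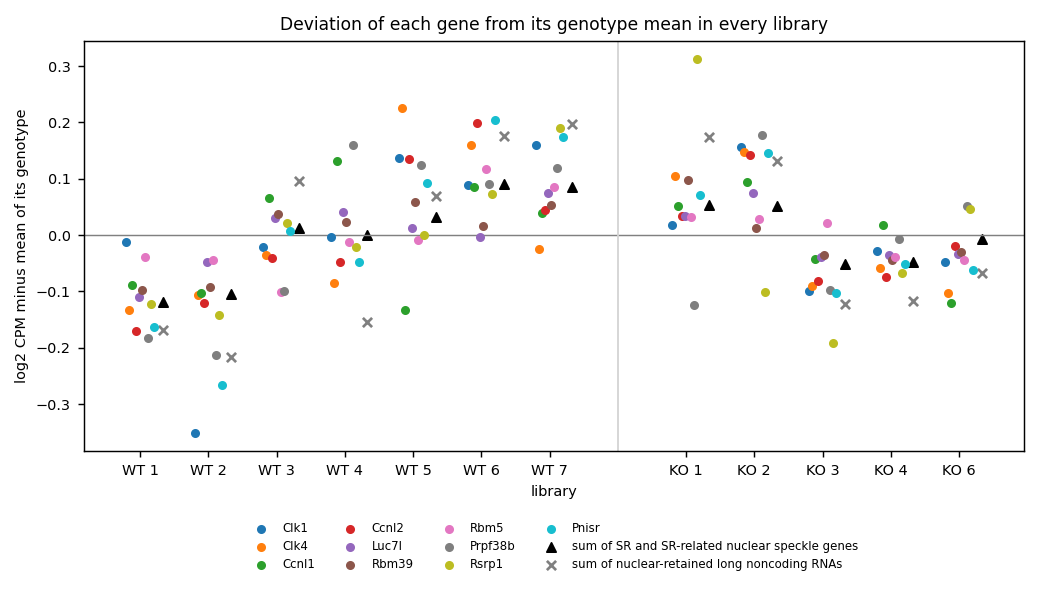
Log2 CPM of each of the 10 genes minus the mean of its genotype in every library (coloured dots), with the same for the summed CPM of 36 SR and SR-related genes (triangles) and of 7 nuclear-retained long noncoding RNAs (crosses). The dots lie mostly below 0 in WT 1, WT 2, KO 3, KO 4 and KO 6 and mostly above it in WT 6, WT 7, KO 1 and KO 2.

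Other gene lists followed the same mice to different degrees. The summed CPM of 36 SR and SR-related nuclear speckle genes, after subtracting genotype means, had r = 0.97 with the mean of the 10 genes (0.95 without its 2 most distant libraries). The sum of 16 other genes known for retained or detained introns had r = 0.95. Nktr, Tra2a, Srsf5, Srsf7 and Arglu1 are in both of these lists, so the 2 relations are not separate. The sum of 7 nuclear-retained long noncoding RNAs, such as Malat1 and Meg3, had r = 0.88. That last sum was 2552 and 2469 CPM in WT 1 and WT 2 and 2579 to 3291 in the other WT libraries, and 3131 and 3041 in KO 1 and KO 2 against 2553 to 2651 in the other KO libraries. KO 1 and KO 2 were thus the KO libraries high for both sets. The sums of other lists followed less closely, with r = 0.81 for close relatives of the 10 genes (0.69 without the 2 most distant libraries), 0.75 for partners of cyclin L and related kinases and cyclins (0.58) and 0.67 for other CLK-like and SR protein kinases (0.27).

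Some cell type markers also moved with the 10 genes. The summed interneuron markers (Gad1, Gad2, Pvalb, Sst and Vip, all detected) had r = 0.70 within genotypes (0.84 without the 2 most distant libraries) and the striatal ones (Drd1, Drd2, Adora2a and Ppp1r1b, all detected) r = 0.57 (0.60). Interneuron sums were 633 to 764 CPM in WT and 593 to 705 in KO, and striatal sums 249 to 616 in WT and 294 to 506 in KO. WT 4 and KO 2 were the highest of their genotype in both sums, so these 2 relations are not separate. The excitatory neuron markers had r = 0.044 (0.53 without the 2 most distant libraries). The other sums had r = 0.51 for choroid plexus (0.43), 0.43 for astrocytes (0.022) and 0.35 for oligodendrocytes (0.39). For endothelial cells r was 0.0085 (0.17), and for microglia it was negative, at -0.41 (0.046). The part of cell composition, dissection or nuclear RNA content in this shared variation was not tested.

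By the same measure, the genes most alike to the 10 within genotypes, among the 12239 ranked, were Srrm1 (r = 0.96), Trank1 (0.95), Ogt (0.95), Ddx17 (0.94), Srrm2 (0.94) and Ppp2r5e (0.94), over 12 libraries. Srrm1 and Srrm2 encode SR-related matrix proteins of nuclear speckles, Ogt the O-GlcNAc transferase, whose gene has a known detained intron, and Ddx17 an RNA helicase. With the genotype means left in, they were Ppp2r5e, Ddx17, Trank1, Ogt, Meg3 and Srrm1, at r = 0.94 to 0.89. None of these 7 genes was called between genotypes by edgeR or DESeq2, and 0 had an unadjusted edgeR p under 0.05. Leaving out 1 library kept 3 to 6 of the 6 in either ranking, and Srrm1 and Trank1 stayed in all 12 rankings within genotypes. Each of the 10 genes had r = 0.50 to 0.96 with the mean of the other 9, with Pnisr highest and Ccnl1 lowest, and 2.15% of the 12239 other genes reached the median of 0.75.

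Among 12 other kinases of CLK type or acting on SR proteins, 2 were called higher and 1 lower, with a median log2 fold change of 0.072. For this and the following lists, the shares over all tested genes were 15.3% higher and 14.4% lower, or 8.49% and 7.96% with density offsets, and the median was 0.034. Dyrk1b and Dyrk2, kinases of the same broader family, rose by 0.25 ± 0.06 and 0.33 ± 0.09, and Srpk2, an SR protein kinase of brain, fell by 0.16 on the log2 scale, with edgeR adjusted p values of 0.00708, 0.0153 and 0.00339. The other CLK genes, Clk2 and Clk3, were at -0.047 ± 0.158 and 0.095 ± 0.061 and were not called. With density offsets 1 of the 12 was higher (Dyrk1b) and none lower, and Srpk2 was at -0.064.

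Of 9 tested partners of cyclin L and related transcription kinases and cyclins, 3 were higher and 1 lower (median 0.084). Cdk12, which phosphorylates RNA polymerase II, went from 50.3 ± 7.01 to 65.9 ± 5.46 CPM (log2 fold change 0.39 ± 0.09, edgeR adjusted p = 0.00407). Ccnt1 and Ccnt2, cyclins of the elongation factor P-TEFb, rose by 0.36 and 0.35, and Fam58b fell by 0.26 on the log2 scale. Ccnt1 missed the threshold without KO 4 or KO 6 (edgeR adjusted p = 0.0653 and 0.0534), and Fam58b without KO 1, KO 2, KO 6, WT 1, WT 2, WT 5 or WT 7 (up to 0.113). Cdk11b, the direct partner of cyclin L, was at -0.068 ± 0.043 and was not called. With density offsets Cdk12 (0.27) and Fam58b (-0.30) were still called and Ccnt1 and Ccnt2 were not.

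Of 7 tested close relatives of the 10 genes, Rbm10 (0.28 ± 0.05) and Rbm6 (0.13 ± 0.05) were higher and Luc7l3 was lower (-0.18 ± 0.05). With density offsets Rbm10 was still called, at 0.25, and Rbm6 and Luc7l3 were not. Luc7l3 also missed the threshold without KO 4 or KO 6 (edgeR adjusted p = 0.0543 and 0.0544), and Rbm6 without any 1 library but KO 1, WT 6 or WT 7 (up to 0.105). Luc7l and Luc7l3 are relatives that were called in opposite directions without offsets.

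The 36 SR and SR-related genes had 2 higher and 13 lower (median -0.015), where 14.4% of all tested genes were lower. Among them were Srsf5, Tra2b and Zranb2 at -0.29, -0.23 and -0.24 and the neuronal microexon regulator Srrm4 at 0.34. These 4 genes are in bins of different density. The share of genes called lower was 67.6% in the densest bin, that of Srsf5 and Zranb2. It was 9.78% in the bin of Tra2b. In the bin of Srrm4, which was itself called higher, 23.9% of genes were called higher and 4.53% lower. With density offsets 3 of the 36 were higher and 3 lower (median -0.0086), and of the 4 named Tra2b (-0.23) and Srrm4 (0.25) were still called. Of the 16 other genes known for retained or detained introns 1 was higher, Mdm4 (0.38 ± 0.08), and 5 lower, such as Arglu1 (-0.24 ± 0.07), with a median of -0.10, and 3 were lower with WT 6 and WT 7 as 1 library. Leaving out single libraries gave 2 to 7 lower, with 2 without KO 3, KO 4 or KO 6 and 3 without WT 5, WT 6 or WT 7. Mdm4 and Arglu1 were called with density offsets as well, where the count was 1 higher and 2 lower, and Arglu1 missed the threshold without KO 3, KO 4 or KO 6 (edgeR adjusted p = 0.0503 to 0.0626). Of 7 nuclear-retained long noncoding RNAs none was called by edgeR and 1, Rian, had an unadjusted p under 0.05. Rian was at -0.14 ± 0.06 (edgeR adjusted p = 0.0723) and was called by DESeq2 (adjusted p = 0.0366), while Snhg11 was at -0.15 ± 0.09 (edgeR adjusted p = 0.206). With depth as a covariate no gene of these 6 lists was called in either direction, against 0.588% of all tested genes higher and 0.0771% lower. With the block, 2 SR genes were higher and 4 lower, and 1 gene of the retained-intron list was higher and 1 lower, against 7.91% of all tested genes higher and 8.31% lower in that fit. There 2 of the 12 kinases were higher and 1 lower. Of the 9 cyclin L partners and related genes 3 were higher, of the 7 close relatives 1 was higher, and none of either list was lower. No long noncoding RNA of the list was called with the block. Several genes sit in more than 1 of these lists.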

How the data were processed

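RNA from frontal cortex of 12 mice was sequenced, 1 library per mouse, with groups taken from the sample titles. The authors deposited raw read counts for each RefSeq gene, as whole numbers, neither normalized nor pooled. STAR and mm10 are named per the submitters' processing notes. The sources used here do not give the counter, the strand setting or how duplicate reads were handled. Genes that overlap Clk4, Ccnl1, Luc7l and Rbm5 are annotated but were not analysed here, so reads from them cannot be told apart.

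Testing used edgeR 4.0.16 under R 4.3.3 (TMM factors, filterByExpr, quasi-likelihood fit on genotype, 12 libraries, Benjamini-Hochberg over 14274 genes, threshold 0.05). SEs were taken from the F statistic, and 95% intervals use the t distribution with 10 residual degrees of freedom. CPM use TMM-scaled sizes. Exonic lengths and exons came from GENCODE M21, matched by RefSeq accession for 14734 of 14909 genes. Symbols turned into dates (23) were renamed from accessions. Density offsets are a smooth of each library's log2 counts on the count per exonic base, for 14118 genes. Ratios use a pseudocount of 0.5 counts. Correlations were permuted within genotype 100000 times. The fit was tested on simulated data.

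Other settings were DESeq2 1.42.0, limma-voom and cyclic loess (limma 3.58.1), other factors and filters, the mouse number as a block, the library total as a covariate and each library left out. Ratios and correlations with offsets, WT 6 and WT 7 as 1 library, and correlations without WT 1 and WT 2 were chosen after seeing the data. The members and lists were chosen with earlier results of these data known. Named are the members, the second gene of each pair, up to 4 called genes of each list by smallest p (2 where none was called) and the 6 genes most alike to the members in each ranking. Any other list gene in the text was picked with its values already seen. The relative of Rbm39 planned for a ratio is not analysed here. One gene that the naming rule would include is not reported here.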

Additional observations from a re-analysis of the deposited data

Results flagged for a closer look

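Of 30 sets of values checked (the 10 genes and 5 ratios in each genotype), 1 held a library far from the others. Clk1 in WT 2 was at 84.7 CPM, while the other 6 WT libraries were at 107 to 121 CPM. About 1 in 20 such sets is expected to stand out by chance. WT 2 was also the lowest WT library for Pnisr, Prpf38b and Rsrp1. Without WT 2 the log2 fold change of Clk1 was -0.14, with an edgeR adjusted p of 0.0590. Over all 12 libraries it was 0.069 with density offsets (edgeR adjusted p = 0.590), in the other direction.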

How the results depend on the processing

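Over the refits of the 10 genes (alternative scalings, filters and tests, and libraries left out), 225 kept the side of the threshold, 8 newly passed it and 7 no longer did. Direction was not always kept by genes that were not called. Clk1 went from -0.088 to 0.069 with density offsets, and with depth as a covariate Ccnl2 and Pnisr were at 0.030 and 0.025. Those that newly passed were 7 for Ccnl1 and 1 for Clk4. Those that no longer passed were Luc7l (2), Rbm39 (3) and Rsrp1 (2), under density offsets, the block or the library total as a covariate.

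Over all genes, 1198 were higher and 1124 lower with density offsets, and 84 higher and 11 lower with depth as a covariate. Of the 10 genes, 1 was higher and 0 lower with offsets, and 0 higher and 0 lower with the covariate. Leaving out single libraries gave 1585 to 2420 genes higher and 1544 to 2467 lower, and 1 to 2 of the 10 higher (2 without WT 5) and 2 to 3 lower. The cause of these shifts was not tested.

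With the mouse number as a replicate block, 1129 genes were higher and 1186 lower, and of the 10 genes 0 were higher and 1, Rsrp1, lower. Same-numbered mice did not deviate together (correlations of -0.38 to 0.14), so the numbers are not taken to pair the mice.

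The difference of the log2 ratio of Clk1 to Clk4 was -0.12 with density offsets (adjusted p = 0.219, exact permutation), -0.23 without KO 2 and WT 4, and -0.28 to -0.21 without single libraries. That of Rbm5 to Rbm6 was 0.0057 with offsets, in the other direction, -0.11 without KO 2 and WT 4, and -0.16 to -0.096 without single libraries. Luc7l to Luc7l2 ran from 0.061 to 0.098 and passed without KO 1 (exact permutation, adjusted p = 0.0455). Of the 6 genes most alike to the members, 3 to 6 stayed without single libraries, in both rankings. The fewest stayed without WT 4 with genotype means left in, and without KO 1, WT 2 or WT 4 with them subtracted.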
